A study of Rattus norvegicus with 27 samples.

Results

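The proteasome genes of cultured rat oligodendrocyte precursor cells (OPCs) were followed on 27 arrays. Members were all genes whose symbol on the platform begins with Psma, Psmb, Psmc, Psmd, Psme, Psmf or Psmg, together with Pomp, and each gene was read on the brightest of its probe sets. The rule found 47 of the 14217 genes measured. They were 7 alpha and 6 constitutive beta subunits of the 20S core, 3 immuno-subunits, 17 genes of the 19S cap, 4 activators or inhibitors of the core, 8 assembly factors, and 2 genes (Psmc3ip and Psme3ip1) whose names follow the same pattern although their products bind a subunit without being one. The constitutive subunit Psmb6 and the activator Psme3 have only probe sets shared with other symbols and were not analysed here. All members had a mean signal above the median of all values (5.99 on the log2 scale), between 7.74 and 12.4.

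OPCs were isolated from the cerebral cortex of rat pups with magnetic beads against A2B5, a ganglioside of glial progenitors, and came from 3 donors, each with 1 array in each of 9 groups. The groups were T3+IFNγ and T3 alone at 8, 24, 48 and 96 h, and PDGF at 0 h, and all cells had been expanded in PDGF. PDGF holds OPCs as dividing progenitors, whereas the thyroid hormone T3 starts differentiation into oligodendrocytes. The labels do not state whether PDGF was still present with T3. The cytokine IFNγ is what sets T3+IFNγ apart from T3 at a given time. T3 and PDGF cultures differ in T3, in time and possibly in PDGF, which cannot be told apart because PDGF arrays exist at 0 h only. The 5 OPC markers measured had means above the median of all values in every group, with Pdgfra, the PDGF receptor, at 12.68, 12.77 and 12.77 in PDGF. The 5 myelin markers had summed signals of 40319 to 45845 with T3+IFNγ and 58624 to 62780 with T3 at 96 h, and 2609 to 2803 in PDGF. Signals are on the log2 scale throughout, a change is a difference of group means, and a gene was called at a limma adjusted p under 0.05 over all 14217 genes. P-values rest on the spread between the 3 donors within a group, pooled over the 9 groups and without pairing by donor.

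The proteasome degrades ubiquitin-tagged proteins in a cylinder of alpha and beta rings, the 20S core, after the 19S cap has bound and unfolded them. IFNγ is known in many cell types to induce alternative catalytic beta subunits, Psmb8, Psmb9 and Psmb10, which take the places of Psmb5, Psmb6 and Psmb7 in newly built cores, and the 11S activator made of Psme1 and Psme2. Such immunoproteasomes are known for cutting peptides that fit MHC class I molecules.

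The promoters of IFNγ-responsive subunits are shown because these genes are classical targets of interferon regulatory factors, with that of Psmb5 as a constitutive counterpart. The sequences come from RefSeq on build GRCr8, 5′ to 3′ on the strand of the gene, and all but that of Psme2 end before the first base annotated to the gene. The Psmb8 promoter lies at chr20:4657050-4657281 (minus strand). The sequence of Psmb9, at chr20:4668652-4668951 (plus strand), is the larger part of the 408 bases between Psmb9 and the peptide transporter gene Tap1, which is transcribed the other way. Psmb10 is shown at chr19:50743293-50743542 (minus strand), Psme1 at chr15:33038721-33038961 (plus strand) and Psmb5 at chr15:32047380-32047629 (minus strand). For Psme2 only 30 bases around a match are shown, at chr15:33052785-33052814 (minus strand), since they lie inside the annotated gene. Capitals mark matches to the motifs described after the sequences.
Psmb8: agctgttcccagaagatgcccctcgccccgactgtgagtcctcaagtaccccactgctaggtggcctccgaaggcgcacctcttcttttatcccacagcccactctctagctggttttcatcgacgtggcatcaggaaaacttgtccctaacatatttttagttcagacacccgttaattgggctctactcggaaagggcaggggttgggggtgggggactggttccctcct
Psmb9: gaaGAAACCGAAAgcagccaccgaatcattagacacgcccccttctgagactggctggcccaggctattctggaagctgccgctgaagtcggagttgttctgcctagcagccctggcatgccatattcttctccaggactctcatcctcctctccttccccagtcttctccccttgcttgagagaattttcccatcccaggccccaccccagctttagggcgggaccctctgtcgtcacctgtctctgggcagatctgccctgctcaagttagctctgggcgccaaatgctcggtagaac
Psmb10: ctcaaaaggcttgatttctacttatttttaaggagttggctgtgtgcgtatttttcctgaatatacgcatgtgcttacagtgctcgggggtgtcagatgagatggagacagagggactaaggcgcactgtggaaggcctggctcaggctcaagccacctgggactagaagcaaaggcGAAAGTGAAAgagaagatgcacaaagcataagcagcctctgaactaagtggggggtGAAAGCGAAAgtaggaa
Psme1: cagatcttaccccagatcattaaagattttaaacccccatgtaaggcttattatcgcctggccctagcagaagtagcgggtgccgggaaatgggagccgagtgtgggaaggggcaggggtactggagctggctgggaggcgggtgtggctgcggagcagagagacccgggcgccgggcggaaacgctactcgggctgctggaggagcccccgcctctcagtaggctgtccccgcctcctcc
Psme2: cctggagagtGAAAGCGAAAgctggggctg
Psmb5: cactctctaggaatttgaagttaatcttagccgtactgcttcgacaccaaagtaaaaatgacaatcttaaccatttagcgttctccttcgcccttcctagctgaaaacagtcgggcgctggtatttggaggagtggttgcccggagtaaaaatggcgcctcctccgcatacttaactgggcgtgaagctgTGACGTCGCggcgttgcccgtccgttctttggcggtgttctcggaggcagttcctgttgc

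Motifs were searched on both strands in the 250 bases before the start in the RefSeq table. They were GAAANNGAAA, bound by interferon regulatory factors, and TGACNNNGC, the antioxidant response element bound by Nfe2l1 and Nfe2l2. Psmb10 held 2 matches to GAAANNGAAA, 8 to 17 and 64 to 73 bases before the start, and Psme2 held 1, 44 to 53 bases before it. Between Psmb9 and Tap1 this motif stood once, 288 to 297 bases before the first annotated base of Psmb9, which is outside the 250 bases compared. Psmb5 held 1 antioxidant element, and no match to these 2 motifs was found in the 250 bases of Psmb8, Psmb9, Psme1 and Psmf1. None of the matches printed overlapped another. GAAANNGAAA was found in 5 of the 43 members with a promoter in the table (11.6%; Psmb10, Psme2, Psma4, Psmb3 and Psmd7), against 3.29% of all 27457 promoters. The antioxidant element was found in 6 members, against 10.2% of all promoters. A match is a stretch of letters and does not show that a factor binds.

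IFNγ raised the 3 immuno-subunits at every time, by 3.14 to 5.34 on the log2 scale at 8 h and by 3.95 to 6.81 at 96 h. It also raised both subunits of the 11S activator and the proteasome inhibitor Psmf1 at each time. Apart from these, the alpha subunit Psma7 was the only member called higher at all 4 times, and no 19S gene was called higher at any time. At 8 h, 9 of the 47 members were called higher and 0 lower, where 3.69% of all genes were called higher and 1.58% lower (5.26% in all). At 24 h, 8 members were higher and 1 was lower (all genes 5.96% and 6.35%, 12.3% in all). At 48 h, 10 were higher and 2 lower (7.58% and 8.53%, 16.1% in all), and at 96 h, 17 were higher and 0 lower (7.91% and 5.63%, 13.5% in all). At an unadjusted limma p under 0.05, 13, 17, 22 and 24 members passed in either direction, beside 2110, 3380, 3987 and 3550 of all 14217 genes. Members that rose at least 2-fold numbered 5 at 8 h and 6 at each later time, beside 1.86%, 2.45%, 2.83% and 2.6% of all genes. The median change over the 47 members was −0.04, −0.07, −0.12 and 0.19 in the order of the times, beside −0.04, −0.04, −0.05 and −0.02 over all genes. Centring the arrays on the median of their genes shifted the median of all genes to −0.13 at 48 h and −0.14 at 96 h. It left 7 members called higher and 9 called lower at 48 h, while at 96 h 11 were higher and Psme4 was lower. The share of all genes called under this centring is not given here, so these counts have no background beside them.

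**Figure D1:**
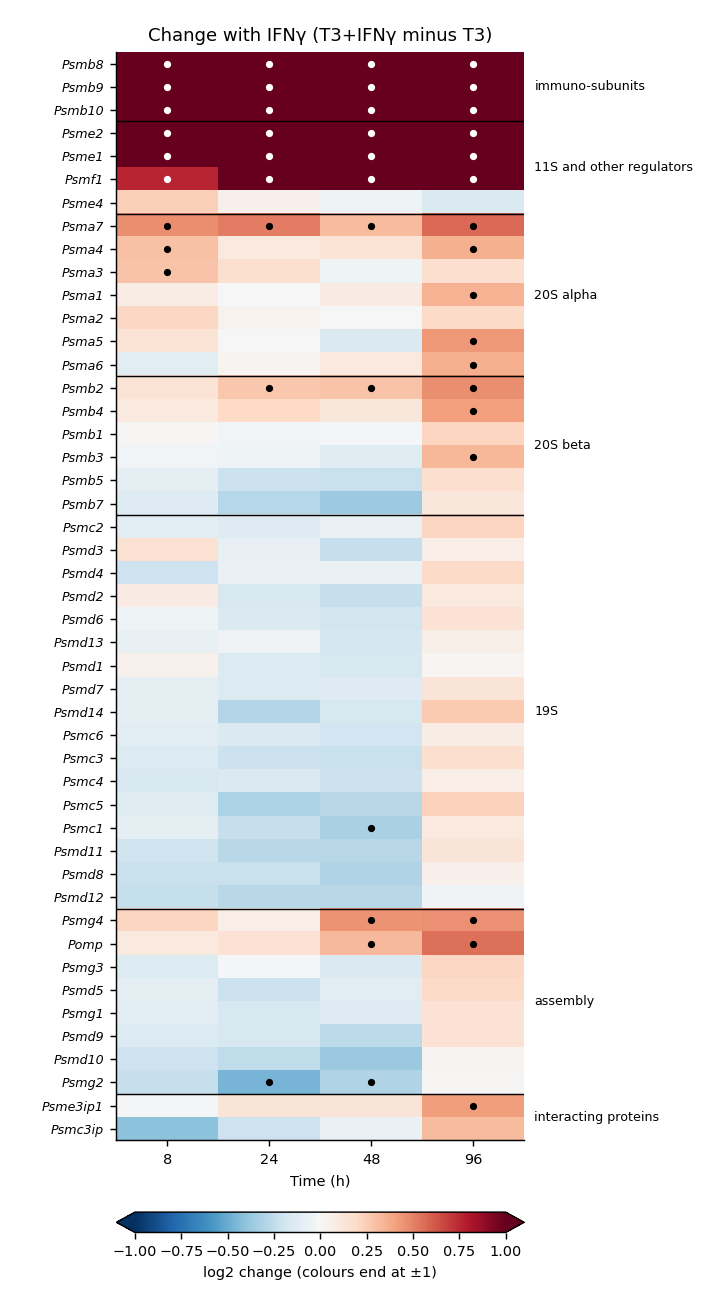
Change with IFNγ of all 47 members, as the log2 difference between T3+IFNγ and T3 at 8, 24, 48 and 96 h, with colours ending at a change of 1 in either direction and dots where limma called the change. The 3 immuno-subunits, Psme1 and Psme2 are at the end of the scale at every time, and the 19S genes carry 1 dot in all, on Psmc1 at 48 h. At 96 h, 45 of 47 rows are above 0, beside 6476 of all 14217 genes. With the arrays centred on the median of their genes (not shown), 34 of 47 changes were above 0 at 96 h.

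Psmb8, which replaces the chymotrypsin-like subunit Psmb5, had signals of 11.61, 11.24 and 11.34 with T3+IFNγ and 5.78, 5.71 and 6.68 with T3 at 8 h (donors 1 to 3). At 24 h it had 12.68, 12.69 and 12.84 with T3+IFNγ and 5.44, 5.70 and 6.66 with T3. Its signals at 96 h were 12.58, 12.70 and 12.68 with T3+IFNγ and 6.05, 6.18 and 6.10 with T3. The groups stood far apart at each time, and donor 3 was the highest of the T3 arrays at 8, 24 and 48 h. The changes were 5.34 ± 0.27 at 8 h (SE, n = 3 each, limma adjusted p = 8.196e-13), 6.80 at 24 h, 6.88 at 48 h and 6.54 at 96 h. Without IFNγ the signal lay near the median of all values (5.99). The values used here carry no detection calls, so the sizes of these changes are less certain than their direction and may be understated.

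Psmb9, which replaces Psmb6, had 12.87, 12.52 and 12.62 with T3+IFNγ and 7.90, 8.02 and 8.45 with T3 at 8 h. At 96 h it had 12.93, 12.99 and 12.93 with T3+IFNγ and 5.73, 6.51 and 6.19 with T3. The groups were apart at both times, and the T3 signal was lower at 96 h than at 8 h in all donors. The change with IFNγ was 4.55 ± 0.20 at 8 h, 6.04 at 24 h, 6.61 at 48 h and 6.81 ± 0.20 at 96 h (SE, limma adjusted p = 5.336e-17 at 96 h). At 96 h its T3 signals too lay near the median of all values.

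Psmb10, which replaces the trypsin-like subunit Psmb7, had 12.41, 11.82 and 11.75 with T3+IFNγ and 8.85, 8.79 and 8.92 with T3 at 8 h. At 24 h it had 12.90, 12.66 and 12.67 with T3+IFNγ and 10.20, 9.47 and 9.76 with T3. Its signals at 96 h were 12.51, 12.34 and 12.30 with T3+IFNγ and 8.17, 8.50 and 8.62 with T3. Its highest T3 signals were at 24 h in all donors, and no T3 array reached a T3+IFNγ array at any time. The change with IFNγ was 3.14, 2.93, 4.34 and 3.95 at the 4 times (SE 0.20, limma adjusted p = 4.059e-11 at 8 h).

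Of the subunits that are replaced, Psmb5 had 12.18, 12.26 and 12.33 with T3+IFNγ and 12.29, 12.40 and 12.36 with T3 at 8 h. At 96 h it had 12.18, 12.25 and 12.02 with T3+IFNγ and 12.02, 12.05 and 11.89 with T3. The groups overlapped at both times. At 24 h it had 12.06, 11.93 and 12.09 with T3+IFNγ and 12.30, 12.18 and 12.24 with T3, and at 24 and 48 h all T3+IFNγ arrays lay below all T3 arrays. Within each donor the difference was below 0 at 8, 24 and 48 h and above 0 at 96 h. Its changes were −0.09, −0.21, −0.22 and 0.17, with none called (limma adjusted p = 0.7029, 0.1024, 0.07729 and 0.2198), and the 95% interval ran from −0.39 to −0.04 at 24 h and from −0.01 to 0.34 at 96 h. Psmb7 changed by −0.13, −0.29, −0.37 and 0.11, not called at any time, and was called lower on average over the 4 times (−0.17, limma adjusted p = 0.04736), a call lost without donor 2 or donor 3 (adjusted p = 0.4719 and 0.181). With the arrays centred on the median of their genes, Psmb5 (−0.30) and Psmb7 (−0.45) were both called lower at 48 h. The same centring moved the median of all genes at 48 h from −0.05 to −0.13. Taken donor by donor, the change of Psmb8 exceeded that of Psmb5 by 5.43 ± 0.66 at 8 h, 7.02 ± 0.61 at 24 h, 7.10 ± 0.46 at 48 h and 6.38 ± 0.07 at 96 h (SD, n = 3). The change of Psmb10 exceeded that of Psmb7 by 3.27 ± 0.44, 3.22 ± 0.29, 4.71 ± 0.35 and 3.84 ± 0.32 at the same times.

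**Figure D2:**
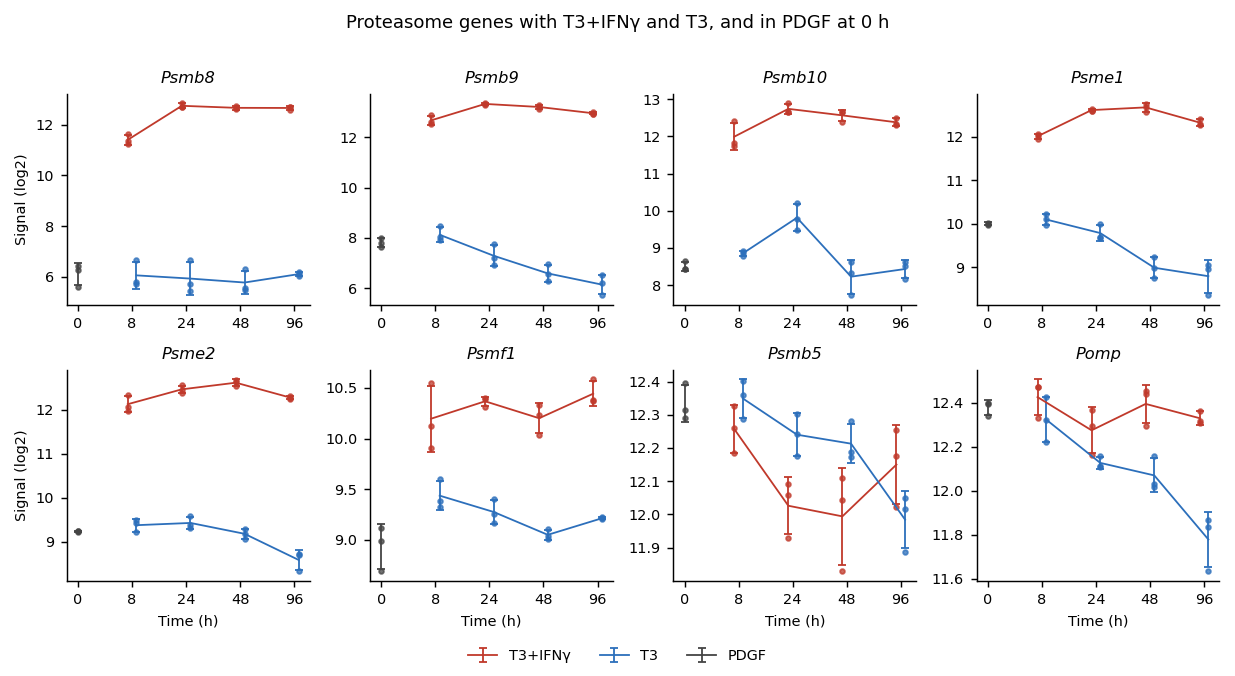
Signal (log2) of 8 members against time, with 1 point for each donor and lines and bars for the mean and SD of 3 arrays with T3+IFNγ, T3 and PDGF (0 h only), on axes scaled for each gene. The T3+IFNγ points of Psmb8, Psmb9, Psmb10, Psme1, Psme2 and Psmf1 lie above all T3 points at every time, those of Psmb5 overlap the T3 points at 8 and 96 h, and those of Pomp stand apart from T3 at 96 h.

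Markers of other cell types were read beside the immuno-subunits. The 16 markers of microglia and macrophages, cells known to carry immuno-subunits, had summed signals of 2957, 2849 and 7001 with T3+IFNγ and 2181, 2126 and 5262 with T3 at 8 h. At 96 h the sums were 4630, 1836 and 7703 with T3+IFNγ and 958, 678 and 887 with T3. At 96 h, 8 of the 16 were called higher with IFNγ and 0 lower, led by the complement genes C1qb (4.16), C1qa (3.58) and C1qc (3.49), with Aif1 (3.16) and P2ry12 (3.04). At 8, 24 and 48 h, 1, 4 and 6 were called higher. Of other defining microglial genes, Cx3cr1 (0.04), Tmem119 (−0.07) and Trem2 (−0.05) were not called at 96 h. The means of these 3 lay under the median of all values in both groups, so little can be read of their change. Of the 16 markers, 14 had means under that median with T3 at 96 h, and 5 with T3+IFNγ. Donors 2 and 3 had marker sums of 1836 and 7703 with T3+IFNγ at 96 h, and Psmb8 signals of 12.70 and 12.68 on the same arrays. With T3 at 8, 24 and 48 h, donor 3 had the highest marker sums (5262, 3430 and 1984). It also had the highest Psmb8 signals there (6.68, 6.66 and 6.29). The 7 astrocyte markers measured had summed signals of 14448 to 18355 with T3+IFNγ and 14598 to 19812 with T3 at 96 h. In PDGF they had 7789 to 10944. Of these 7, 1 was called higher with IFNγ and 0 lower at 24, 48 and 96 h. The largest difference among them at 96 h was that of Aldh1l1, with means of 7.97 with T3+IFNγ and 6.46 with T3. Of 5 neuron markers, 1 was called higher and 0 lower at every time. The part of these cell types in the result was not tested. In bulk RNA, fewer cells of a type and less RNA in each cell cannot be told apart.

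**Figure D3:**
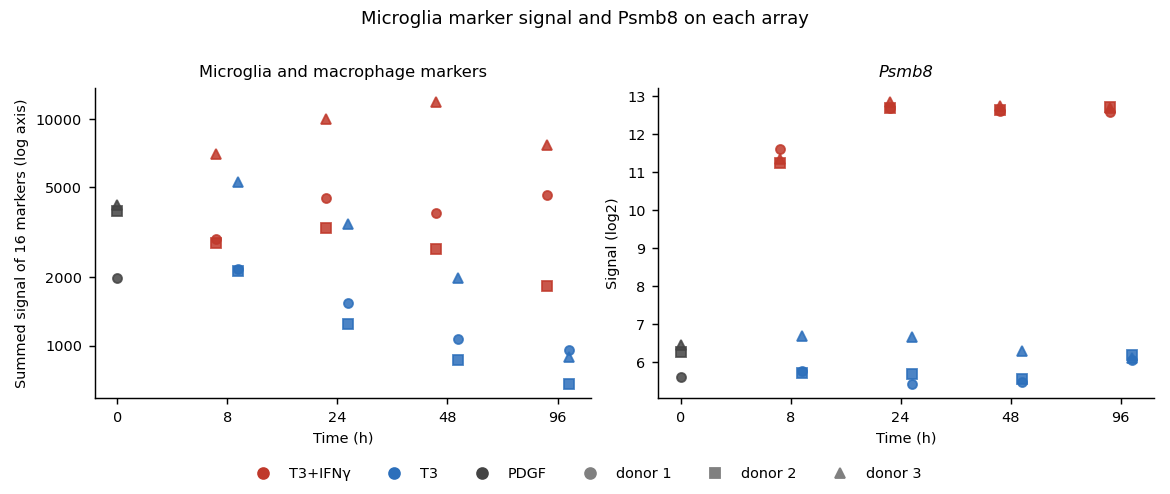
Summed linear signal of 16 microglia and macrophage markers (log axis, left) and log2 signal of Psmb8 (right) on each array, by time, with donors as symbols. The marker sum spreads over the donors with T3+IFNγ, with 4630, 1836 and 7703 at 96 h, and Psmb8 lies between 12.58 and 12.70 there. Among the T3 arrays at 8, 24 and 48 h, donor 3 is the highest in both panels.

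The 11S activator, built of Psme1 and Psme2, is a ring that opens the gate of the core without ubiquitin or ATP. Psme1 had 12.06, 12.01 and 11.95 with T3+IFNγ and 10.10, 9.97 and 10.23 with T3 at 8 h. Its signals at 96 h were 12.42, 12.26 and 12.29 with T3+IFNγ and 8.37, 8.97 and 9.06 with T3. Its T3+IFNγ arrays were close together and its T3 arrays lower at 96 h than at 8 h. Psme2 had 12.33, 12.06 and 11.98 with T3+IFNγ and 9.42, 9.21 and 9.48 with T3 at 8 h. At 96 h it had 12.25, 12.30 and 12.27 with T3+IFNγ and 8.33, 8.73 and 8.69 with T3. The order of the groups was the same as for Psme1 at both times, without overlap. Psme1 rose with IFNγ by 1.91 ± 0.14 at 8 h, 2.82 at 24 h, 3.68 at 48 h and 3.52 ± 0.14 at 96 h (SE, limma adjusted p = 7.109e-15 at 96 h), and Psme2 by 2.75 ± 0.11, 3.04, 3.44 and 3.69 ± 0.11 (adjusted p = 6.297e-17 at 96 h). A second, dim probe set of Psme1 (mean 5.40, under the median of all values) was not called with IFNγ at any time (0.16, −0.05, −0.28 and −0.20), so the result for Psme1 is that of its bright probe set.

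Psmf1, known to inhibit the 20S core in vitro, had 10.55, 9.91 and 10.13 with T3+IFNγ and 9.60, 9.39 and 9.33 with T3 at 8 h. Its signals at 96 h were 10.58, 10.37 and 10.38 with T3+IFNγ and 9.22, 9.22 and 9.20 with T3. The groups did not overlap. It rose by 0.76 ± 0.13 at 8 h (1.69-fold, limma adjusted p = 0.0003041), 1.09 at 24 h, 1.15 at 48 h and 1.23 ± 0.13 at 96 h (2.34-fold, adjusted p = 2.025e-07). The call at 8 h was lost without donor 3 (adjusted p = 0.07515). Psme4, a nuclear activator that is not of the 11S kind, was not called with IFNγ at any time (0.24, 0.05, −0.04 and −0.15). In all, 7 members were called higher at all 4 times, as were 2.32% of all genes. Psmb2 joined them among the 8 members whose T3+IFNγ arrays were all above the T3 arrays at every time, as in 3.47% of all genes.

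Of the 7 alpha subunits, which form the gated outer rings, Psma7 had 12.35, 12.18 and 12.32 with T3+IFNγ and 11.77, 11.88 and 11.82 with T3 at 8 h. At 96 h it had 12.002, 11.968 and 11.874 with T3+IFNγ and 11.33, 11.40 and 11.41 with T3. The groups did not overlap, and it rose by 0.46, 0.51, 0.32 and 0.57 at the 4 times (SE 0.08, limma adjusted p = 0.000444, 9.223e-05, 0.00827 and 2.139e-05). Psma3 (0.28) and Psma4 (0.29) rose at 8 h. At 96 h Psma5 (0.43), Psma6 (0.36), Psma4 (0.36) and Psma1 (0.35) did, which with Psma7 makes 5 of 7. At 8 h the call of Psma3 was lost without any 1 of the donors, that of Psma4 without donor 2 or donor 3 and that of Psma7 without donor 3, which leaves 5 members called, and at 48 h that of Psma7 was lost without donor 1 or donor 3 and with the arrays centred on the median of their genes.

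Of the 6 constitutive beta subunits, Psmb2, which has no catalytic site, was called higher at 24, 48 and 96 h (0.27, 0.29 and 0.47, SE 0.07). It had 11.93, 11.92 and 11.85 with T3+IFNγ and 11.38, 11.46 and 11.45 with T3 at 96 h, so that all T3+IFNγ arrays were the higher. The other subunits without a catalytic site were Psmb4 (0.41) and Psmb3 (0.33), which rose at 96 h, and Psmb1 (0.22 at 96 h), which was not called at any time. The call of Psmb2 at 24 h was lost without any 1 of the donors, and at 48 h without donor 2 or donor 3. All 6 beta and all 7 alpha subunits had a change above 0 at 96 h, with medians of 0.27 and 0.36, where 6476 of all 14217 genes did. With the arrays centred on the median of their genes, 5 of 6 and 7 of 7 did, with medians of 0.15 and 0.23, and 2 of each group were called. Of the 11 members called at 96 h other than the immuno-subunits, Psme1, Psme2 and Psmf1, those whose call held without each donor in turn were Psma7, Psmb2, Psmb4 and Pomp. Members called higher at 96 h numbered 11 without donor 2.

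The 19S cap holds the ATPases Psmc1 to Psmc6, which unfold substrates, and Psmd subunits that bind ubiquitin or remove it. None of its 17 genes was called higher with IFNγ at any time, and 1 was called lower, the ATPase Psmc1 at 48 h (−0.33 ± 0.10, SE, limma adjusted p = 0.0301). Psmc1 had 10.89, 10.38 and 10.72 with T3+IFNγ and 11.07, 10.88 and 11.01 with T3 at 48 h. The groups overlapped, and the call was lost without donor 2 or donor 3 (adjusted p = 0.2732 and 0.2279). At an unadjusted limma p under 0.05 in either direction, 0, 4, 7 and 3 of the 17 passed at the 4 times. Of all 14217 genes, 2110, 3380, 3987 and 3550 passed. Over the 17 genes the medians were −0.11, −0.15, −0.22 and 0.10. All 17 lay below 0 at 24 and 48 h, as did 8283 and 8307 of all 14217 genes. At 96 h, 16 lay above 0, beside 6476 of all genes. The changes at 96 h ran from −0.04 for Psmd12 to 0.26 for the deubiquitinase Psmd14. The turn at 96 h depended on the scaling: with the arrays centred on the median of their genes, 8 of 17 lay above 0 (median −0.02). Under that centring 5 of 17 were called lower at 48 h (Psmc1, Psmc3, Psmc4, Psmd3 and Psmd8), where the median of all genes was −0.13.

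Among the assembly factors, Pomp, which escorts beta subunits into new cores and is then degraded in them, had 12.33, 12.47 and 12.47 with T3+IFNγ and 12.22, 12.32 and 12.43 with T3 at 8 h. Its signals at 96 h were 12.37, 12.31 and 12.32 with T3+IFNγ and 11.64, 11.84 and 11.87 with T3. The groups overlapped at 8 h and stood apart at 96 h. Its changes were 0.10 and 0.15 at 8 and 24 h, not called, 0.33 at 48 h and 0.55 ± 0.08 at 96 h (SE, limma adjusted p = 2.327e-05), and the call at 48 h was lost without any 1 of the donors. Psmg4, a chaperone of the alpha ring, rose by 0.45 at 48 h and 0.45 at 96 h, calls lost without any 1 of the donors and with that centring. Psmg2, another chaperone of the alpha ring, had 8.91, 8.78 and 8.87 with T3+IFNγ and 9.35, 9.32 and 9.29 with T3 at 24 h. It stood lower in all T3+IFNγ arrays and fell by 0.46 at 24 h (limma adjusted p = 0.00075) and 0.30 at 48 h, where the call was lost without donor 2 or donor 3. In the fit with donors as blocks, 6 members were called lower at 48 h, against 2 without the block.

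Averaged over the 4 times, 15 members were called higher and 6 lower, where 12.7% of all genes were called higher and 18.5% lower (31.2% in all). The 6 lower were Psmb7, 3 of the 19S genes, Psmg2 (−0.24) and Psmd10 (−0.20), a chaperone of the 19S base, and the calls of Psmb7 and Psmd10 were lost without donor 2 or donor 3. With the arrays centred on the median of their genes the split was 12 higher and 14 lower, with 9 of the 17 19S genes among the lower. The median of all genes was then −0.11, against −0.04 without centring.

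The change with IFNγ itself differed between times. Relative to its change at 8 h, the change of Psmb9 was larger by 1.49 at 24 h, 2.07 at 48 h and 2.26 at 96 h, and that of Psme1 by 0.91, 1.77 and 1.61. The changes of Psmb8 and Psmb10 were larger at 48 h than at 8 h (1.54 and 1.20), and at 96 h their differences of 1.21 and 0.81 did not pass the test (limma adjusted p = 0.08172 and 0.117). Those of Psme2 (0.68 at 48 h and 0.94 at 96 h), Pomp (0.45 at 96 h) and Psma6 (0.47 at 96 h) were also larger. The T3 means of Psme2, Pomp and Psma6 were lower at 96 h than at 8 h. No member was called for a smaller change at a later time, the lowest being Psme4 at 96 h (−0.39, not called). At 24 h 2 members passed, beside 0.359% of all genes with a larger and 0.309% with a smaller change (0.668% in all). At 48 h 5 members passed (1.05% and 1.22%, 2.27% in all), and at 96 h 5 (2.24% and 2.08%, 4.32% in all), or 11 at 96 h with donors as blocks. The calls of Psme1 at 48 and 96 h and of Psmb9 at 96 h held without each donor in turn, and the others were lost without at least 1 donor. Without the T3+IFNγ arrays of donor 2 at 8 and 24 h, 0 passed at 24 h and 2 at 48 h. These 2 arrays had the highest 3′ minus 5′ log2 differences of the GAPDH control (0.37 and 0.11, against −0.26 to 0.07 on the others), and the part of RNA quality in the result was not tested.

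Other genes of the pathway were read beside the members. Of 15 genes for peptide trimming and loading, 6 were called higher with IFNγ at every time, among them the transporter genes Tap1 (4.76 at 8 h and 5.80 at 96 h) and Tap2 (3.65 and 4.22), Tapbp (2.44 and 3.36) and B2m, and 2 were called lower at 48 h. The T3+IFNγ signals of B2m (14.21, 14.11 and 14.16 at 96 h) lay close to the highest value in the data, so no size is given for its change. On rat chromosome 20, 1121 bases separate Tap1 from Psmb8, on the other side from Psmb9. Of 5 precursors or activating enzymes of ubiquitin and its relatives, 3 were called higher at 8 and 24 h and 4 at 48 and 96 h. Ubd, whose product sends proteins to the proteasome, had 12.57, 12.28 and 13.12 with T3+IFNγ and 4.69, 4.62 and 4.66 with T3 at 96 h. Uba7, which activates Isg15, had 8.17, 8.37 and 8.06 with T3+IFNγ and 5.76, 5.47 and 5.40 with T3. Isg15, Ubd and Uba7 rose at every time. Of 5 genes for transcription of proteasome genes, Irf1 (5.31 at 8 h and 5.67 at 96 h) and Nlrc5, the class I transactivator, were called higher at each time. The T3 signals of Ubd, Uba7 and Nlrc5 lay under the median of all values at 96 h, and those of Isg15, Tap1 and Tap2 lay near it, so the sizes of these changes are less certain than their direction. Nfe2l1, the factor that raises proteasome genes when the proteasome is blocked, was not called (−0.19, −0.08, 0.05 and 0.10). Nfe2l2, which binds the same element, was not called at any single time (0.19, 0.58, 0.73 and 0.69) and was called higher on average over the 4 times (0.55, limma adjusted p = 0.008645). Of 18 proteasome-associated factors, such as shuttle proteins and deubiquitinases, the only call at a single time was Ubqln2, higher at 48 h (0.33).

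With T3 against PDGF, most constitutive proteasome genes stood lower at 96 h. At that time 27 of the 47 members were called lower and 2 higher, where 29.5% of all genes were called lower and 23.4% higher (53% in all), and the member median was −0.29 beside 0.01 over all genes. At 8 h 3 members were called, all higher (7.31% of all genes higher and 5.37% lower, 12.7% in all). At 24 h 5 were higher and 12 lower (17.1% and 17.8%, 34.9% in all), and at 48 h 6 were higher and 9 lower (17.5% and 25.7%, 43.1% in all). In the fit with donors as blocks 5 were called at 8 h. Centring the arrays on the median of their genes moved the median of all genes to 0.13 at 48 h and 0.17 at 96 h. After centring, 5 members were higher and 7 lower for 24 h, 13 against 7 for 48 h, and 4 against 17 for 96 h. Of all calls at 24 h, 7 were made without donor 2 and 6 without donor 3.

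Of the alpha subunits, 6 of 7 fell with T3 at 96 h, with Psma1 (−0.66), Psma6 (−0.45) and Psma7 (−0.40) changed most, and Psma3 rose instead. Psma3 had 10.70, 10.74 and 10.78 with T3 at 48 h and 10.02, 9.92 and 10.09 in PDGF. Its groups did not overlap, with a change of 0.73 ± 0.08 at 48 h (SE, limma adjusted p = 1.014e-07) and 0.26 at 96 h, where the call was lost without donor 2. Of the beta subunits 4 of 6 fell at 96 h, with Psmb2 (−0.39) and Psmb5 (−0.35) changed most. Psmb5 had 12.02, 12.05 and 11.89 with T3 at 96 h and 12.29, 12.32 and 12.40 in PDGF, and its call was lost without donor 3 (adjusted p = 0.07223). Its 2 other probe sets are dim (means 4.83 and 4.90), and 1 of them was called lower too (−0.28). Of the 19S genes 8 of 17 fell, led by Psmd14 (−0.66), Psmd2 (−0.57) and Psmd3 (−0.54), and the 9 others were not called. All 3 probe sets of Psmd14 fell at 96 h (−0.69, −0.54 and −0.66). With the arrays centred on the median of their genes, 2 alpha, 1 beta and 5 19S genes were called lower at 96 h.

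Assembly factors held the largest changes of the constitutive machinery. Psmg4 had 9.02, 9.04 and 9.23 with T3 at 96 h and 10.20, 9.86 and 9.98 in PDGF (−0.92 ± 0.14, SE, limma adjusted p = 9.373e-06). Psmg2 fell by 0.75, Psmg1, its partner on the alpha ring, by 0.70, and Pomp by 0.60 (adjusted p = 9.381e-07). Psmd10 had 11.06, 10.73 and 10.88 with T3 at 96 h and 9.98, 9.81 and 9.88 in PDGF. It went the other way, without overlap, by 1.0 ± 0.13 (SE, limma adjusted p = 1.133e-06), and was called higher at 8, 24 and 48 h too (0.42, 0.49 and 0.55), though the call was lost at 8 h without any 1 of the donors and at 24 h without donor 2 or donor 3. Pomp, Psmg1, Psmg2, Psmg4 and Psmd10 kept their calls at 96 h with the arrays centred on the median of their genes. Psmc3ip, a partner of meiotic recombinases, had 6.36, 6.50 and 6.67 with T3 at 96 h and 9.58, 9.19 and 9.35 in PDGF (−2.87 ± 0.17, SE), the largest fall among the members. Psme3ip1 rose by 0.45 at 8 h, lost without donor 2 or donor 3, and 0.59 at 48 h.

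**Figure D4:**
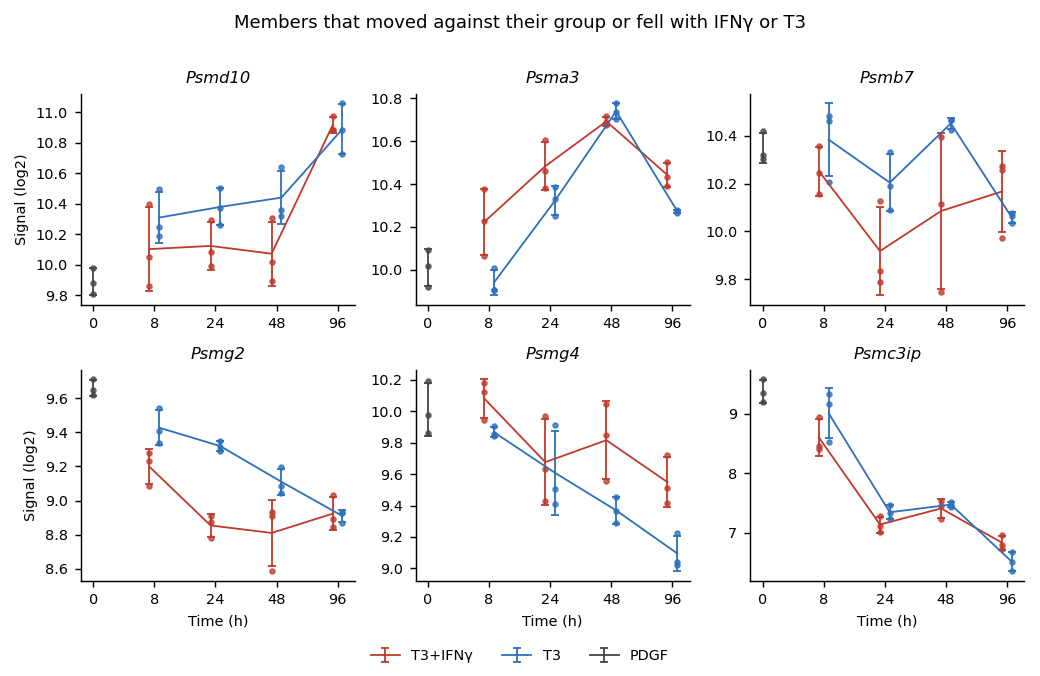
Signal (log2) of Psmd10, Psma3, Psmb7, Psmg2, Psmg4 and Psmc3ip against time, with 1 point for each donor and lines and bars for the mean and SD of 3 arrays with T3+IFNγ, T3 and PDGF (0 h only), on axes scaled for each gene. With T3+IFNγ as with T3, Psmd10 and Psma3 stand above PDGF at 96 h and Psmg2, Psmg4 and Psmc3ip below it, and the T3+IFNγ points of Psmg2 lie under those of T3 at 24 h.

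The immuno-subunits and the 11S genes also moved without IFNγ. Psmb9 had 5.73, 6.51 and 6.19 with T3 at 96 h and 7.81, 7.66 and 8.01 in PDGF. It fell by 0.54 at 24 h, 1.24 at 48 h and 1.68 ± 0.20 at 96 h (SE, limma adjusted p = 1.527e-07), with groups that overlapped at 24 h and a call lost there without donor 1 or donor 2. Psme1 fell by 1.01 at 48 h and 1.20 at 96 h, and Psme2 by 0.65 at 96 h. Psmb10 rose by 1.30 ± 0.20 at 24 h (SE, limma adjusted p = 1.459e-05) and was not called at 8, 48 or 96 h (0.35, −0.28 and −0.08). Psmb8 was not called at any time, with a 95% interval from −0.56 to 0.56 at 96 h. Psmf1 rose by 0.50 at 8 h and 0.34 at 24 h, calls that were lost without donor 2 or donor 3. Psme4 fell by 0.44 at 24 h on its brightest probe set, where its most variable probe set gave 0.23, and all 3 of its probe sets were lower at 96 h. Of the 16 microglia and macrophage markers, 13 were called lower with T3 at 96 h and 0 higher, with summed signals of 958, 678 and 887 with T3 and 1979, 3943 and 4179 in PDGF. Their part in the falls of Psmb9, Psme1 and Psme2 was not tested. Of the 7 astrocyte markers measured, 3 were called higher and 1 lower with T3 at 96 h, and their part was not tested either. Of the 18 proteasome-associated factors, 10 were called lower and 3 higher with T3 at 96 h, among them the shuttle factor Ubqln4 (−1.53), Faf1 (−1.35), the deubiquitinase Uchl5 (−1.01), and Zfand5 (0.88).

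Against the same PDGF arrays, T3+IFNγ cultures at 96 h had 10 members called higher and 11 lower (22.4% and 27.5% of all genes, 49.8% in all). At 8 h, 10 were higher and 3 lower (8.95% and 9.66%, 18.6% in all). At 24 h the counts were 10 and 21 (19.7% and 21%, 40.8% in all), and at 48 h 12 and 12 (16.7% and 25.9%, 42.6% in all). The rises were again led by Psmb8 (6.54 at 96 h), Psmb9 (5.13), Psmb10 (3.87), Psme2 (3.04), Psme1 (2.32) and Psmf1 (1.51). Among the falls at 24 h were 13 of the 17 19S genes, with the lid subunit Psmd11 (−0.81), the ATPase Psmc5 (−0.67) and Psmd14 (−0.59) changed most, beside 4 of 17 with T3 alone. Compared directly, T3+IFNγ and T3 at 24 h differed in 0 called genes of these 17, with a median change of −0.15. A second bright probe set of Psmd11 was called lower too (−0.43 at 24 h). At 96 h 5 of 17 19S genes were called lower with T3+IFNγ and 8 of 17 with T3. Pomp was at −0.05 with T3+IFNγ, not called, and at −0.60 with T3. At 48 h 13 members were called in all without donor 2.

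Over 39 members, leaving out the immuno-subunits, Psme1, Psme2, Psmf1 and the 2 interacting proteins, the median change from the PDGF mean was taken on each array. At 24 h it was −0.22, −0.35 and −0.20 with T3+IFNγ and −0.10, −0.21 and −0.16 with T3. At 96 h it was −0.07, −0.05 and −0.07 with T3+IFNγ and −0.32, −0.32 and −0.26 with T3. The T3+IFNγ arrays were the nearer to PDGF at 96 h in every donor, and the farther from it at 24 h. These medians were not tested, and they move with the scaling of the arrays. The median range over the 9 group means was 0.64 for the alpha subunits, 0.40 for the beta subunits, 0.49 for the 19S genes and 0.78 for the assembly factors, where it was 6.96 for the immuno-subunits and 0.67 for all genes.

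**Figure D5:**
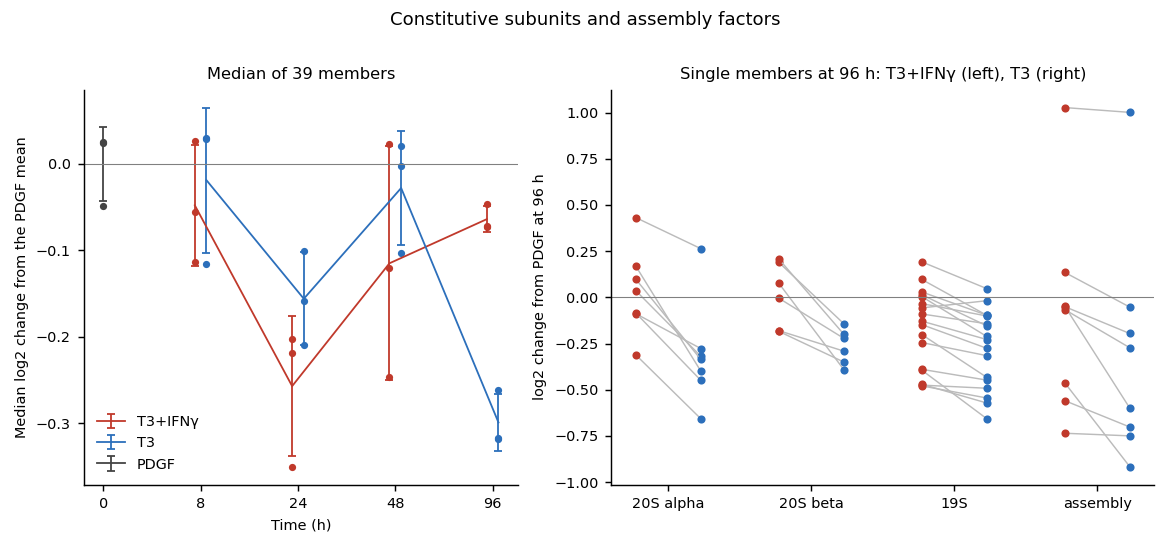
Left, median log2 change from the PDGF mean over 39 members by time, with 1 point for each donor and the mean and SD of 3 arrays with T3+IFNγ, T3 and PDGF. Right, log2 change from PDGF at 96 h of each alpha, beta, 19S and assembly member, with T3+IFNγ joined to T3 by a line. On the left the mean at 96 h is −0.06 with T3+IFNγ and −0.30 with T3.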

How the data were processed

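Gene expression was measured on Affymetrix rat arrays, and the arrays were grouped by treatment, time and donor as in the labels. The authors computed the deposited log2 signals with RMA (background correction, quantile normalization and a summary for each probe set) and named limma for comparisons, both without a version. The values were used as deposited, with array medians between 5.95 and 6.03. Of 31099 probe sets, 20832 have 1 gene symbol in the platform annotation of 2016, 436 several and 9831 none. Only the first were used, and the brightest probe set stood for each of 14217 genes. Quantile normalization holds the distribution of signals equal on all arrays, so a shift common to most genes would not be seen.

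With limma 3.58.1 in R 4.3.3, 1 mean per group was fitted over all 27 arrays, with eBayes and Benjamini-Hochberg adjustment over all genes within each comparison. The comparisons were T3+IFNγ minus T3 for single times and as a mean of the 4, either group minus PDGF, and the later minus the 8 h change with IFNγ. Tables and plots were made with pandas 2.3.3, matplotlib 3.10.9 and NumPy 2.4.6 under Python 3.11.15. The members and lists were chosen with earlier results of these data known. Named were the 8 marker genes in every comparison, in each group up to 4 called members with the largest change and any called against its group, the largest interactions, and up to 4 called genes of each other list. P2ry12 was named after its values were seen.

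The donor numbers of the labels pair the arrays: residuals of the same donor correlated with a median r of 0.310, those of different donors with −0.171. Residuals were taken from the means of 3 arrays, so the negative sign of the second value follows from the first. On data simulated for T3+IFNγ against T3 at 96 h over 14217 genes, 64.2% of 1.5-fold, 92.5% of 2-fold and 100% of 4-fold changes were called, with 4 unchanged genes called. The simulation changed 200 genes and drew each array independently, without donors. In the data 1924 genes were called at 96 h, so these shares need not hold for the real comparison. With 3 arrays in each group, their number limits the precision. Alternatives covered scaling, donors as blocks, dim genes, other probe sets, fewer groups, eBayes settings, other thresholds and each donor left out. IFNγ given without T3 was not analysed here. Of the 47 members, 43 matched a RefSeq promoter, and no protein sequences were used here.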

Additional observations from a re-analysis of the deposited data

Results flagged for a closer look

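The change with IFNγ differed between times for 7 members, by limma's test of the difference with adjustment over all genes. Psmb9 had a larger change at 24 h than at 8 h by 1.49 (adjusted p = 0.009454), at 48 h by 2.07 (adjusted p = 0.0001227) and at 96 h by 2.26 (adjusted p = 1.564e-05). Psme1 had larger changes at the same 3 times by 0.91 (adjusted p = 0.02612), 1.77 (adjusted p = 1.011e-05) and 1.61 (adjusted p = 1.267e-05). Psme2 was larger by 0.68 at 48 h (adjusted p = 0.0176) and 0.94 at 96 h (adjusted p = 0.0005312). At 48 h Psmb8 was larger by 1.54 (adjusted p = 0.03272) and Psmb10 by 1.20 (adjusted p = 0.02127). At 96 h Psma6 was larger by 0.47 (adjusted p = 0.02003) and Pomp by 0.45 (adjusted p = 0.02085). For Psmb9 and Psme1 the T3 signal was itself lower at 48 and 96 h than at 8 h. The T3 mean was also lower at 48 h than at 8 h for Psmb8 and Psmb10. It was lower at 96 h than at 8 h for Psme2, Pomp and Psma6. Pomp had its highest group mean with T3+IFNγ at 8 h, and Psma6 with T3 at 8 h.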

How the results depend on the processing

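Psmb8, Psmb9, Psmb10, Psme1 and Psme2 were called higher at each time in all 48 of 48 alternative values, and Psmf1 in 46 of 48 (highest adjusted p = 0.09002). Of 233 called values of single members, 191 were kept with the arrays centred on the median of their genes, 190 with only the groups of the comparison, 233 with donors as blocks, and 194, 160 and 148 without replicates 1, 2 and 3. The block cost no call, and the counts it moved by over 1.5 times are given here. Psme4 was reversed with the most variable probe set: 0.23 for T3 against PDGF at 24 h, and for T3+IFNγ against PDGF 0.37 at 24 h and 0.074 at 48 h. The cause of these changes was not tested.

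Members called higher with IFNγ at 8 h numbered 5 with only the groups of the comparison, 5 at 2-fold or more, and 5 to 8 with a replicate left out (5 without replicate 3). At 24 h they numbered 7 with any replicate left out. At 48 h they were 6 with only those groups, 6 at 2-fold and 6 to 7 with a replicate left out (6 without replicate 3), and at 96 h 11 with centring, 6 at 2-fold and 11 to 12 (11 without replicate 2). Members called lower numbered 0 at 8 h whichever replicate was left out, and at 24 h 2 with trended and robust eBayes, 0 at 2-fold and 1 with a replicate left out. At 48 h they numbered 6 with the block, 9 with centring, 4 among genes above the median of all values, 4 with the mean of probe sets, 0 with only those groups, 5 with trended eBayes, 4 without the T3+IFNγ arrays of donor 2 at 8 and 24 h (chosen for their GAPDH ratio), 0 at adjusted p under 0.01, 0 at 2-fold, and 0 to 5 with a replicate left out (0 without replicate 2 or 3, 5 without replicate 1). At 96 h they numbered 1 with centring, and 0 whichever replicate was left out.

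For T3 against PDGF, 5 members were called at 8 h with the block, 0 with only those groups, 1 at adjusted p under 0.01, 0 at 2-fold and 0 to 2 with a replicate left out. At 24 h 9 were called at 0.01, 2 at 2-fold and 6 to 14 with a replicate left out (7 without replicate 2, 6 without replicate 3), at 48 h 3 at 2-fold and 10 to 13, and at 96 h 4 at 2-fold and 23 to 26. For T3+IFNγ against PDGF the counts at 2-fold were 6, 7, 7 and 8 at the 4 times, and with a replicate left out 10 to 11, 20 to 28, 13 to 25 (13 without replicate 2) and 15 to 20. On average over times 6 were called at 2-fold and 12 to 19 with a replicate left out (12 without replicate 3). Changes that differed from 8 h numbered at 24 h 1 with the mean of probe sets, 1 with only those groups, 0 without the donor 2 arrays, 1 at 0.01, 1 at 2-fold and 0 to 2 with a replicate left out. At 48 h they were 2 with only those groups, 2 without the donor 2 arrays, 2 at 0.01 and 1 to 4, and at 96 h 11 with the block, 8 with trended eBayes, 3 at 0.01, 2 at 2-fold and 2 to 4. The low signal of Psmb8 without IFNγ, near the median of all values, limits what can be read of it there.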
